A study of Danio rerio with 8 samples.

Results

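Chemokine ligands, chemokine receptors and atypical chemokine receptors were followed in RNA from zebrafish (Danio rerio) larvae given TCDD (2,3,7,8-tetrachlorodibenzo-p-dioxin), a dioxin that activates the aryl hydrocarbon receptor (AHR). Members were the genes whose symbol in the deposited files begins with ccl, cxcl, ccr, cxcr, xcr or ackr followed by a digit. The rule found 71 of 25725 genes, namely 28 CC ligands, 17 CXC ligands, 12 CC receptors, 7 CXC receptors, 3 XC receptors and 4 atypical receptors. The study had 4 libraries of TCDD larvae and 4 of larvae given DMSO, the solvent control. Both treatments ran from 2 hours postfertilization, and RNA was taken at 5 days postfertilization. The sources used here give no strain, genotype, TCDD concentration, number of larvae per library or clutch of origin. All p-values therefore speak of spread among these libraries, which may be technical.

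Chemokines are small secreted proteins that steer moving cells through G protein-coupled receptors. The CC, CXC and XC families are named for the pattern of their first cysteines. Atypical receptors bind chemokines without G protein signalling and take them out of circulation, which shapes the gradients that other receptors read. In zebrafish embryos Cxcl12 and its receptors guide primordial germ cells, the lateral line primordium and growing vessels, while Cxcl8 draws neutrophils to wounds and infections.

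Total estimated counts per library were 14080977 to 14478768 in TCDD and 14048563 to 15183023 in DMSO, and the detection floor of 3 counts lay at 0.193 to 0.239 CPM. CPM stands for counts scaled to a common library size, with TMM factors for single genes and without them for summed lists. The AHR target gene cyp1a was at 7765 ± 1475 CPM in TCDD and 118 ± 30.6 CPM in DMSO (SD, n = 4 each; edgeR adjusted p = 6.0e-07), higher in the libraries labelled TCDD. The tissue is labelled heart, and the cardiac myosin light chain gene myl7 was present (104 ± 25.9 CPM in TCDD, 207 ± 53.5 CPM in DMSO). So was the liver gene fabp10a (1552 ± 188 CPM in TCDD, 2833 ± 1663 CPM in DMSO). Summed over marker lists, liver transcripts made up 39760 CPM in TCDD and 41440 CPM in DMSO, and cardiomyocyte transcripts 1131 CPM in TCDD and 1261 CPM in DMSO, so values describe the sampled material and not heart cells alone. In such bulk RNA, fewer cells of a type and less RNA per cell cannot be told apart. On the second principal component, which held 28.5% of the variance, TCDD 2 (28.95) and DMSO 1 (59.9) stood apart from the other 6 libraries (-25.0 to -0.177). Calls that were lost without this pair are named with each result. The calls of cyp1a, il6r, lyz, tek and the tissue lists after the endothelial genes are given without this check.

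Per length and averaged over all 8 libraries, cxcl12a and ackr3b of the Cxcl12 system held the highest levels among the members. Levels are compared between genes in TPM, which the authors scaled for transcript length and library size. The ligand gene cxcl12a was at 63.9 ± 7.42 TPM in TCDD and 105 ± 13.1 TPM in DMSO. Next came ackr3b, which encodes an atypical receptor of Cxcl12, at 91.5 ± 12.7 TPM in TCDD and 49.7 ± 11.4 TPM in DMSO. Averaged over all 8 libraries the next levels were those of ccl25b (64.9 TPM), cxcl14 (35.5 TPM), cxcl8b.1 (33.27 TPM), cxcl12b (26.2 TPM), ccl44 (23.7 TPM), ccl34b.1 (22.7 TPM), ccl19b (19.95 TPM) and ccl33.3 (10.5 TPM). Neighbours in this order, such as cxcl14 and cxcl8b.1, overlapped between libraries. The order also differed by group. In DMSO the mean of ccl25b (66.4 ± 8.90 TPM) exceeded that of ackr3b, and in TCDD ccl25b (63.4 ± 7.14 TPM) was close to cxcl12a. The signalling receptors were lower, the highest being cxcr4a (9.07 TPM), ccr9a (7.14 TPM) and cxcr4b (6.13 TPM). Summed over each class, CXC ligands made up 198 TPM in TCDD and 245 TPM in DMSO, CC ligands 170 and 205 TPM, CXC receptors 25.6 and 19.2 TPM, CC receptors 16.55 and 14.6 TPM, and atypical receptors 97.9 and 54.4 TPM. Deposited TPM ran higher in TCDD for genes in general, with a median shift of 0.26 on the log2 scale (0.5 added). Group differences in these TPM means and sums carry that shift. By edgeR on counts, the 6 tested CC receptors had a median change of -0.05 on the log2 scale, 3 above 0 and 3 below.

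**Figure D1:**
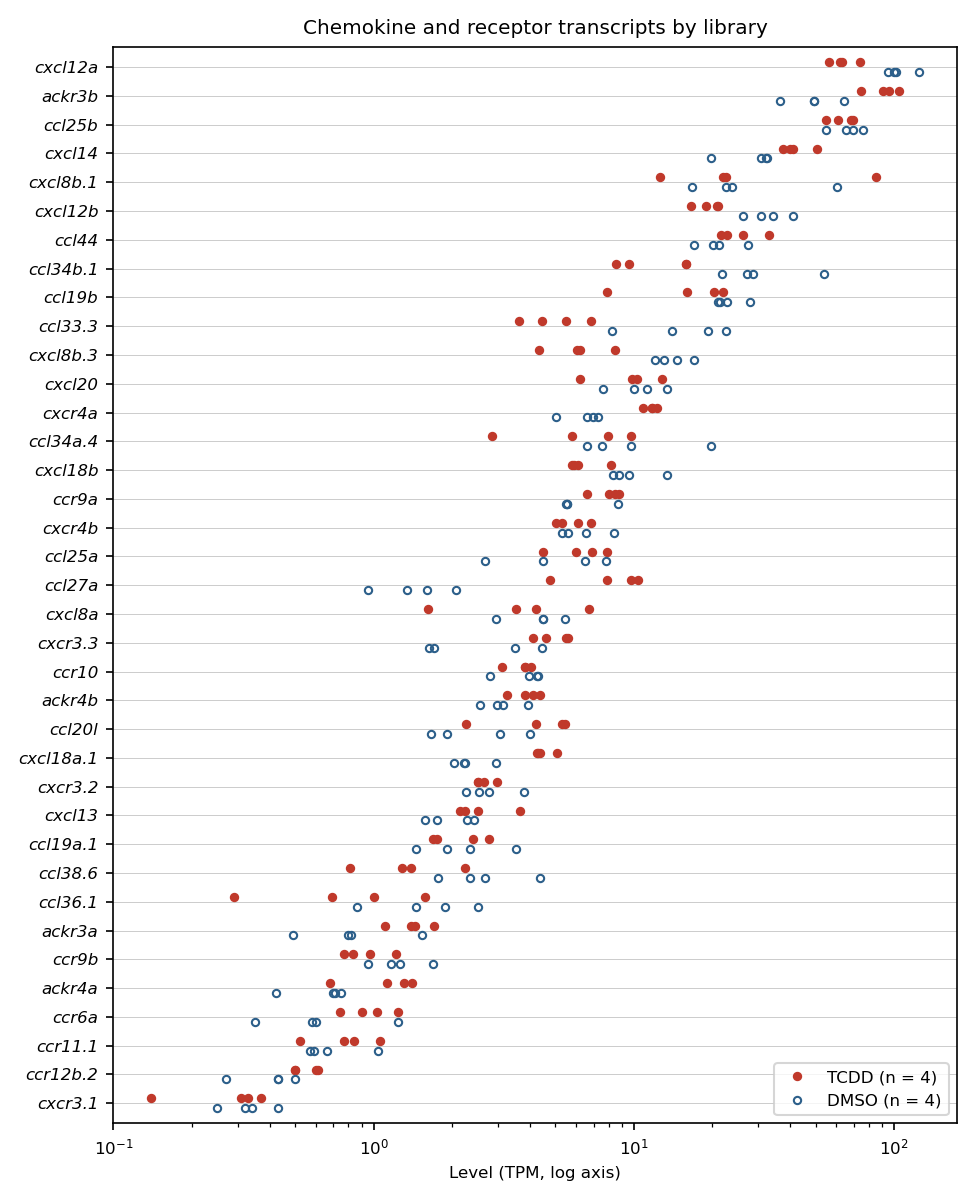
Level of each of the 37 tested members in TPM (log axis), with 1 filled point per TCDD library and 1 open point per DMSO library (n = 4 each). The order of genes follows the mean of all 8 libraries, from 84.5 TPM for cxcl12a to 0.311 TPM for cxcr3.1.

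Of the 71 members, 37 passed the filter on low counts and 34 did not. By edgeR's quasi-likelihood test with Benjamini-Hochberg adjustment over all 20522 genes tested, 3 members rose in TCDD and 6 fell (adjusted p under 0.05). Called genes were 5.73% of all genes tested (2.99% higher, 2.73% lower). The rises were ackr3b, cxcr4a and ccl27a, and the falls were cxcl12a, cxcl12b, cxcl8b.3, cxcl18b, ccl34b.1 and ccl33.3. By class, 4 of 10 tested CXC ligands fell and 0 rose, 2 of 12 CC ligands fell and 1 rose, 1 of 5 CXC receptors and 1 of 4 atypical receptors rose, and 0 of 6 CC receptors passed (2 had an unadjusted p under 0.05, and DESeq2 and limma-voom called 0). The median log2 fold change (TCDD against DMSO) of the 37 was -0.35, against 0.00 for all genes tested, and depended on the libraries and the scale (-0.15 when DMSO 1 was left out, -0.17 when TCDD 3 was, -0.21 when DMSO 1 and TCDD 2 both were, -0.03 on deposited TPM, where the median of all genes was itself 0.26). Without both DMSO 1 and TCDD 2, 1 member was called higher and 4 lower. The groups did not overlap for 12 of the 37 members (4 higher, 8 lower in TCDD), against 14.0% of all genes tested (7.61% higher, 6.34% lower).

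**Figure D2:**
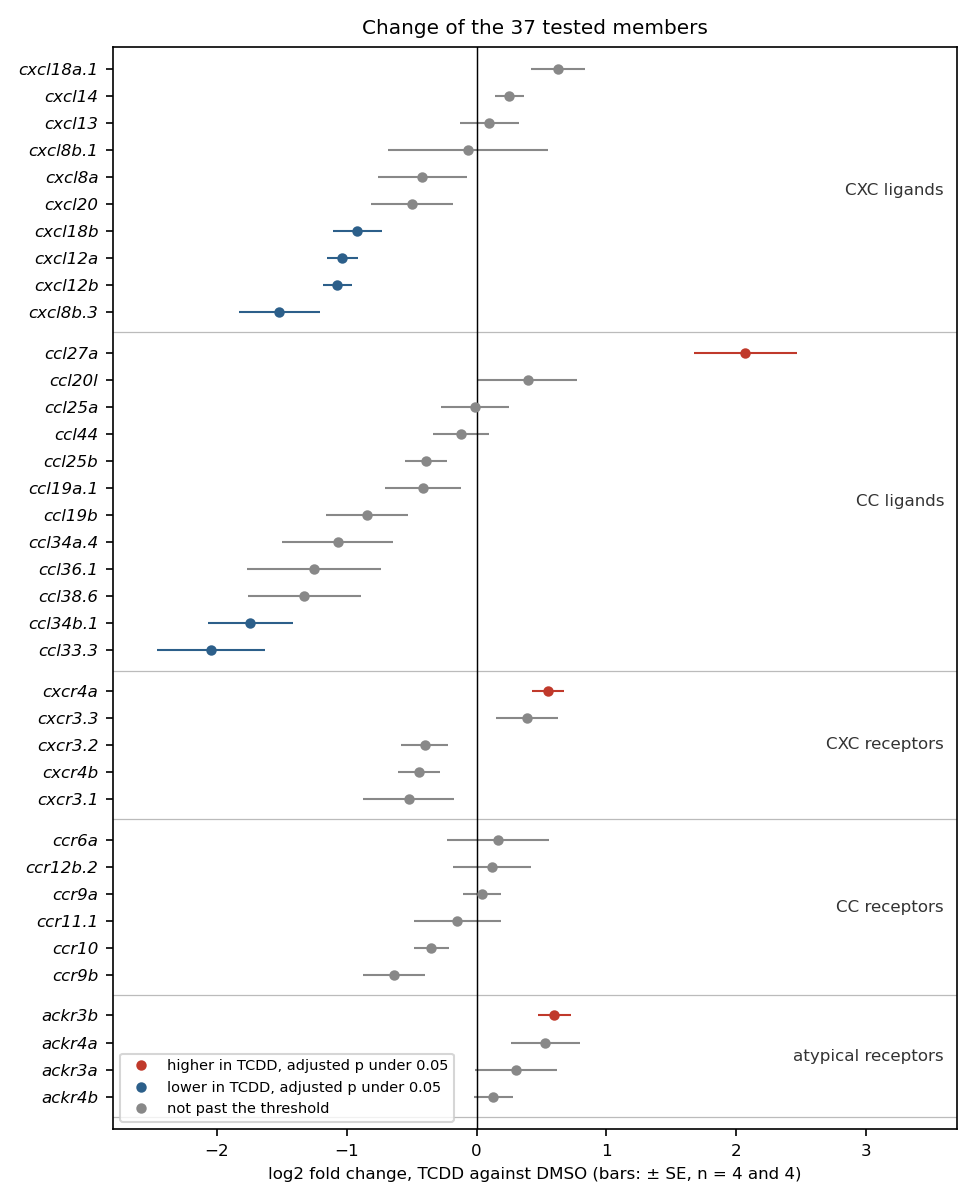
Log2 fold change of TCDD against DMSO for the 37 tested members, by class, as points with bars of ± SE (4 libraries in each group). Points right of 0 are higher in TCDD, from ccl33.3 (-2.04) to ccl27a (2.07), and coloured points had an adjusted p under 0.05.

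Both genes for the ligand Cxcl12 fell, and these were the calls with the smallest p among the members. In libraries 1 to 4, cxcl12a (NCBI gene 352944) held 62.2, 68.9, 78.1 and 62.6 CPM in TCDD, against 162.5, 131, 129 and 133 CPM in DMSO. Every TCDD library lay below every DMSO library, and DMSO 1 was the highest. The level was 2.05-fold lower in TCDD (log2 fold change -1.03 ± 0.12, SE; edgeR adjusted p = 0.00072). Its paralog cxcl12b (NCBI gene 799354), described in zebrafish vessel growth, held 44.7, 47.9, 47.8 and 35.8 CPM in TCDD, against 96.5, 92.8, 85.5 and 95.8 CPM in DMSO. The groups again did not overlap, with TCDD 4 lowest, and the level was 2.104-fold lower in TCDD (-1.07 ± 0.11, edgeR adjusted p = 0.00048). The ratio of cxcl12a to cxcl12b in TPM was 3.32 ± 0.377 in TCDD and 3.21 ± 0.289 in DMSO (SD, n = 4 each), with overlap between the groups. The calls of both genes held in all 24 other settings tried, with adjusted p up to 0.0077 for cxcl12a and 0.016 for cxcl12b, and without both DMSO 1 and TCDD 2 the changes were -0.96 (adjusted p = 0.0016) and -1.10 (0.00099).

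Of the 4 receptor genes of Cxcl12, ackr3b and cxcr4a rose and the other two did not pass. The scavenging receptor gene ackr3b (formerly cxcr7b), which in the zebrafish lateral line primordium removes Cxcl12a at the rear, held 133.5, 152, 133.8 and 99.5 CPM in TCDD, against 82.8, 90.2, 84.3 and 85.2 CPM in DMSO. All TCDD libraries exceeded all DMSO libraries, TCDD 4 by the least, and the level was 1.51-fold higher (0.60 ± 0.13, edgeR adjusted p = 0.019). The signalling receptor gene cxcr4a, known in zebrafish for roles in vessels and endoderm, held 13.0, 13.5, 12.4 and 10.9 CPM in TCDD, against 8.62, 7.67, 9.004 and 8.65 CPM in DMSO. These groups did not overlap either, and the level was 1.47-fold higher (0.55 ± 0.12, adjusted p = 0.023). Its paralog cxcr4b, which steers the lateral line primordium and germ cells, held 8.16, 6.30, 6.93 and 5.46 CPM in TCDD, against 10.4, 9.56, 9.14 and 7.46 CPM in DMSO. Here TCDD 1 lay above DMSO 4, and the difference missed the threshold (-0.44 ± 0.16, adjusted p = 0.13). The second Ackr3 gene, ackr3a, was at 1.91 ± 0.127 CPM in TCDD and 1.55 ± 0.743 CPM in DMSO (0.30 ± 0.32, adjusted p = 0.62).

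Ratios within a library do not depend on its size, and they are given without a test. In TPM, ackr3b was 1.617, 1.666, 1.29 and 1.198 times cxcl12a in TCDD, against 0.384, 0.517, 0.491 and 0.483 times in DMSO. By TPM, ackr3b thus exceeded cxcl12a in each TCDD library and in no DMSO library. As neither gene overlapped between the groups in TPM, the separation of this ratio follows from their levels and adds no further support. The second ligand gene, cxcl12b (19.3 ± 2.05 TPM in TCDD, 33.1 ± 6.26 TPM in DMSO), is not part of that ratio. The ratio of cxcr4a to cxcr4b in TPM was 1.73, 2.32, 1.93 and 2.16 in TCDD, against 0.898, 0.868, 1.06 and 1.25 in DMSO, with no overlap. The calls of ackr3b and cxcr4a were lost without TCDD 1 (adjusted p = 0.0601 and 0.0785), TCDD 2 (0.0671 and 0.0841), TCDD 3 (0.0574 and 0.0632), DMSO 3 (0.0686 and 0.0608) or both DMSO 1 and TCDD 2 (0.0686 and 0.0919), fits that had fewer libraries. Their changes stayed within 0.49 to 0.90 for ackr3b and 0.50 to 0.86 for cxcr4a on the log2 scale over all settings tried.

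**Figure D3:**
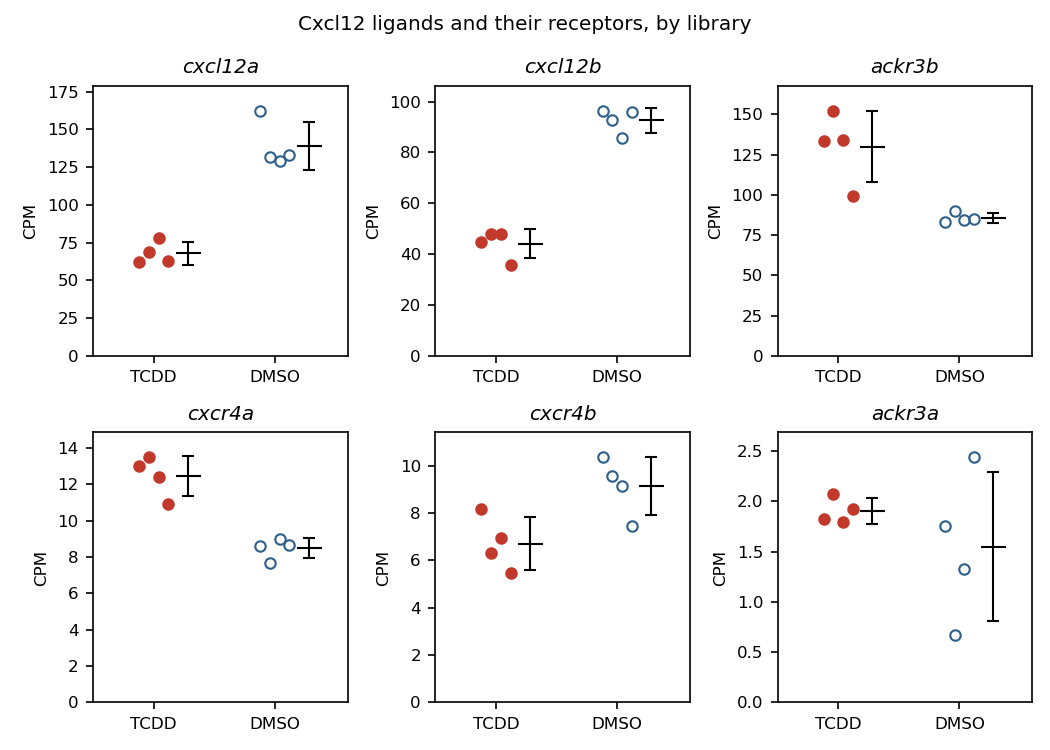
CPM of both Cxcl12 genes and their receptor genes, with 1 point per library (filled for TCDD, open for DMSO) and a bar for the mean ± SD (n = 4 each). TCDD libraries lie below DMSO libraries for cxcl12a and cxcl12b and above them for ackr3b and cxcr4a, while the groups overlap for cxcr4b and ackr3a.

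Among the CXC ligands tied to neutrophils, cxcl8b.3 and cxcl18b fell and the other Cxcl8 genes did not pass. Cxcl8 is the main neutrophil attractant in fish as in mammals, and zebrafish carry several genes for it. cxcl8b.3 held 0.877, 1.25, 0.866 and 0.578 CPM in TCDD, against 3.91, 1.82, 2.51 and 2.09 CPM in DMSO. Its groups did not overlap, and the level was 2.87-fold lower in TCDD (-1.52 ± 0.31, edgeR adjusted p = 0.016). Its neighbour in RefSeq's GRCz12tu assembly, cxcl8b.1, held 8.97, 9.20, 4.93 and 31.9 CPM in TCDD, against 15.2, 23.6, 10.8 and 8.09 CPM in DMSO. TCDD 4 was the highest of all 8 libraries and TCDD 3 the lowest, and no change was detectable (-0.07 ± 0.62, adjusted p = 0.97). cxcl8a was at 1.33 ± 0.655 CPM in TCDD and 1.78 ± 0.331 CPM in DMSO (-0.42 ± 0.34, adjusted p = 0.52). cxcl18b, an inflammation-induced chemokine gene of fish whose product attracts neutrophils in zebrafish, held 1.62, 1.59, 1.599 and 2.06 CPM in TCDD, against 3.591, 3.5, 3.07 and 2.86 CPM in DMSO. The groups did not overlap, with a 1.89-fold lower level in TCDD (-0.92 ± 0.19, adjusted p = 0.017).

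Limits apply to both calls. That of cxcl8b.3 ended without DMSO 3 (adjusted p = 0.0512) and with offsets for transcript length (-1.07, adjusted p = 0.0514), and how reads were shared among the Cxcl8b genes was not tested. That of cxcl18b ended without TCDD 1 (0.0536), without TCDD 2 (0.0527) and without the pair of libraries that stood apart (0.0844), with offsets for length (-0.56, 0.168) and on deposited TPM (0.0772 and 0.0779 with pseudocounts of 0.5 and 0.1). The receptor side was near the detection limit, with 2 counts of cxcr2 over the 4 TCDD libraries and 7 over the 4 DMSO libraries. The related gene cxcl18a.1 held 2.02, 2.42, 2.00 and 1.86 CPM in TCDD, against 1.52, 1.35, 1.26 and 1.26 CPM in DMSO. All TCDD libraries lay above all DMSO libraries, but the change did not pass (0.63 ± 0.21, adjusted p = 0.10), except on deposited TPM (0.0159 and 0.0163) and with offsets for length (0.0355).

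Of the CC ligands, ccl34b.1 and ccl33.3 fell. The gene ccl34b.1, which marks a microglial population in the adult zebrafish brain, held 3.57, 1.94, 2.07 and 3.28 CPM in TCDD, against 9.65, 4.71, 7.61 and 14.5 CPM in DMSO. The DMSO libraries spread widely but all exceeded every TCDD library, and the level was 3.34-fold lower in TCDD (-1.74 ± 0.33, edgeR adjusted p = 0.012). Without both DMSO 1 and TCDD 2 the change was -1.59 and did not pass (adjusted p = 0.12). ccl33.3 held 0.944, 1.18, 1.40 and 0.707 CPM in TCDD, against 7.58, 1.68, 4.82 and 3.56 CPM in DMSO. DMSO 2 was closest to the TCDD libraries, DMSO 1 farthest, and the level was 4.12-fold lower in TCDD (-2.04 ± 0.42, adjusted p = 0.016). That call was lost without DMSO 3 (0.0513) and with limma-voom (0.052).

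In the gene order of that assembly, ccl33.3 stands beside ccl33.2 and ccl34b.1 lies within 4 genes of ccl34b.4, and how reads were shared among them was not tested. Further CC ligands had lower means in TCDD without passing. They were ccl38.6 (0.838 ± 0.373 CPM in TCDD and 2.14 ± 1.32 CPM in DMSO; -1.33 ± 0.43, adjusted p = 0.10), ccl34a.4 (1.55 ± 0.671 and 3.28 ± 1.87 CPM; -1.07 ± 0.43, adjusted p = 0.17) and ccl36.1 (-1.26 ± 0.52, adjusted p = 0.18). In libraries 1 to 4, ccl38.6 held 1.35, 0.830, 0.466 and 0.707 CPM in TCDD, against 4.07, 1.35, 1.88 and 1.26 CPM in DMSO, so TCDD 1 overlapped DMSO. It passed with DESeq2 (adjusted p = 0.0462) and with the replicate number as a block (0.0336). ccl44 did not pass (4.18 ± 0.954 CPM in TCDD and 4.55 ± 1.03 CPM in DMSO; -0.12 ± 0.21, adjusted p = 0.79), with a sign that turned with the scaling.

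The largest rise was that of ccl27a (NCBI gene 30268). In mammals CCL27 is made by keratinocytes and binds the receptor CCR10. Estimated counts of ccl27a were 32, 33, 25 and 15 in TCDD, against 9, 3, 5 and 6 in DMSO. That is 2.16, 2.28, 1.67 and 0.964 CPM in TCDD, against 0.718, 0.202, 0.349 and 0.419 CPM in DMSO, with TCDD 4 nearest to DMSO and no overlap. The level was 4.199-fold higher in TCDD (2.07 ± 0.40, edgeR adjusted p = 0.012), at few counts. It was the only tested member that passed the filter through all 4 libraries of 1 group and none of the other, so it was tested only through its level in TCDD. The call held in each fit without 1 library (adjusted p up to 0.04995) and without both DMSO 1 and TCDD 2 (2.27, 0.019), and DESeq2 gave it no adjusted p. The receptor gene ccr10 held 6.20, 7.96, 7.26 and 6.94 CPM in TCDD, against 8.70, 8.21, 9.84 and 9.35 CPM in DMSO. Those groups did not overlap, but the change did not pass (-0.35 ± 0.13, adjusted p = 0.15). The paralog ccl27b had 1 count in the TCDD libraries together and 2 in the DMSO libraries.

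**Figure D4:**
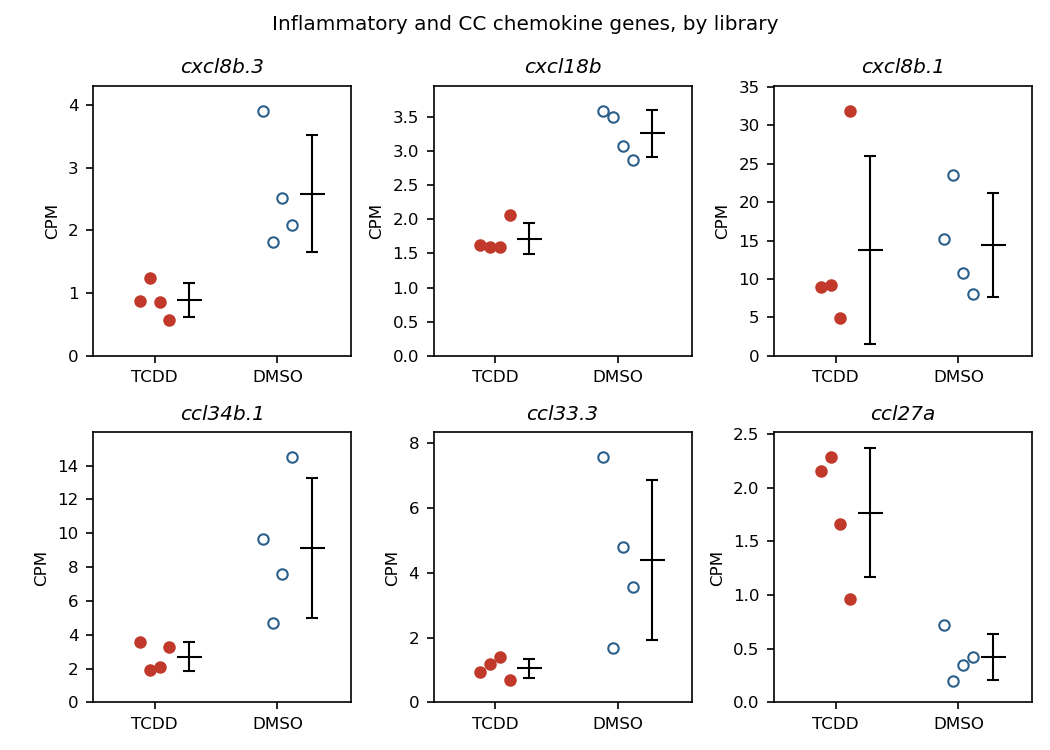
CPM of 6 further ligand genes, with 1 point per library (filled for TCDD, open for DMSO) and a bar for the mean ± SD (n = 4 each). TCDD libraries lie below DMSO libraries for cxcl8b.3, cxcl18b, ccl34b.1 and ccl33.3 and above them for ccl27a, while cxcl8b.1 ran up to 31.9 CPM in 1 TCDD library.

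Genes of the Ccl25 and Ccr9 system, which brings lymphocyte progenitors to the thymus in fish and mammals, did not pass. ccl25b, the third most abundant member per length, was at 29.5 ± 4.09 CPM in TCDD and 38.7 ± 8.68 CPM in DMSO (-0.39 ± 0.16, adjusted p = 0.18). ccl25a was at 2.21 ± 0.545 and 2.22 ± 0.621 CPM (-0.01 ± 0.26, adjusted p = 0.98), and the receptor gene ccr9a at 10.5 ± 1.13 and 10.2 ± 1.57 CPM (0.04 ± 0.14, adjusted p = 0.90), in TCDD and DMSO, both with a sign that turned between settings. The second receptor gene, ccr9b, held 1.55, 1.11, 1.13 and 0.835 CPM in TCDD, against 1.76, 2.02, 1.74 and 1.67 CPM in DMSO. Its groups did not overlap, and the change did not pass (-0.64 ± 0.24, adjusted p = 0.15). Where 2.73% of all genes tested were called lower and 2.99% higher, among 9 tested markers of lymphocytes and thymus (ccr9a included) 1 fell and 0 rose. That was rag2, a recombinase gene of developing lymphocytes (2.84 ± 0.567 CPM in TCDD, 4.79 ± 0.695 CPM in DMSO; -0.76 ± 0.19, adjusted p = 0.041). Its partner rag1 did not pass (14.3 ± 4.24 and 22.4 ± 3.69 CPM, adjusted p = 0.088). The median log2 fold change of this list was -0.64. Summed without ccr9a, the list was at 28.7 ± 4.92 CPM in TCDD and 39.65 ± 7.98 CPM in DMSO. That difference had an exact two-sided permutation p of 0.086 (0.18 adjusted over 17 lists). The rag2 call was lost in 6 of the 8 fits without 1 library, with library size alone (0.102), on deposited TPM (0.24 and 0.26), with the replicate number as a block (0.0529) and without both DMSO 1 and TCDD 2 (0.0794). The part of these cells in the values above was not tested.

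In the Ccl19 and Ccr7 system, which in mammals guides dendritic cells and T cells, ccl19b held 8.70, 6.85, 8.99 and 3.08 CPM in TCDD, against 18.8, 8.82, 11.45 and 10.7 CPM in DMSO. Only TCDD 3 exceeded a DMSO library, DMSO 2, and the change did not pass (-0.85 ± 0.31, adjusted p = 0.15). ccl19a.1 was at 0.766 ± 0.115 CPM in TCDD and 1.03 ± 0.285 CPM in DMSO (adjusted p = 0.45), and ccr7 had 1 and 6 counts over the 4 libraries of each group. Of the atypical receptors that take up CCL19 and CCL25 in mammals, ackr4a was at 2.17 ± 0.659 CPM in TCDD and 1.49 ± 0.219 CPM in DMSO (0.53 ± 0.27, adjusted p = 0.27). The second of them, ackr4b, was at 9.61 ± 1.27 CPM in TCDD and 8.78 ± 1.28 CPM in DMSO (0.13 ± 0.15, adjusted p = 0.66).

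The Cxcr3 receptors, which bring macrophages to infection sites in zebrafish, did not pass either. cxcr3.2, the signalling receptor, was at 3.64 ± 0.213 CPM in TCDD and 4.82 ± 1.04 CPM in DMSO (-0.40 ± 0.18, adjusted p = 0.22). cxcr3.3, described in zebrafish as a scavenging form, was at 4.83 ± 1.001 and 3.67 ± 1.11 CPM (0.39 ± 0.24, adjusted p = 0.37), and cxcr3.1 at 0.572 ± 0.215 and 0.821 ± 0.159 CPM (adjusted p = 0.41). Their ligand gene cxcl11.1 had 5 counts in each group. The constitutively made chemokine gene cxcl14 was at 52.1 ± 5.49 CPM in TCDD and 43.7 ± 4.54 CPM in DMSO (0.25 ± 0.11, adjusted p = 0.22). cxcl20 (3.09 ± 0.891 and 4.39 ± 2.08 CPM, adjusted p = 0.38), cxcl13 (1.99 ± 0.499 and 1.86 ± 0.204 CPM, adjusted p = 0.85) and ccr6a (0.800 ± 0.158 and 0.718 ± 0.405 CPM, adjusted p = 0.85) did not pass. The remaining tested members were ccl20l (adjusted p = 0.59), ccr11.1 (0.84) and ccr12b.2 (0.86).

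The 34 members below the filter had at most 26 counts in any library, and 14 of them had 10 counts or fewer over all 8 libraries. Without the filter, 3 members were called higher and 6 lower, the same genes as with it, so none of the 34 passed. Their low counts limit which differences could be detected. Summed over 4 libraries, the most counted were ccl20a.3 (41 in TCDD, 30 in DMSO), ccr12a (30 and 35), cxcl19 (40 and 22), xcr1b.3 (37 and 24), ccl39.3 (14 and 33), ccl39.6 (16 and 30), ccl34b.4 (20 and 26), ccr2 (15 and 30) and ccr6b (29 and 15). Of the ccl20a.3 counts in TCDD, 26 came from TCDD 2. Scarcer members included ccl20b (17 and 11), ccl35.1 (10 and 10), cxcr5 (9 and 10) and xcr1a.1 (1 and 2).

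Chemokine transcripts are short, and the median change of all short transcripts was below 0. Dividing the deposited count by the deposited FPKM gave each transcript's implied length. That is the length used in the deposited scaling, which need not be the full transcript, and lengths below are meant in this sense. Under 600 bases, 17 tested members had a median log2 fold change of -0.42 with 1 rise and 4 falls, against -0.32 for all 1003 tested genes of that range, of which 6.58% were called (5.78% lower, 0.798% higher). At 600 bases or more, 20 members had a median of 0.07, with 2 rises and 2 falls. All 19519 tested genes of that range had a median of 0.01, with 606 called higher and 503 lower. The Cxcl12 genes, cxcr4a and ackr3b were in the longer range (1272 to 2723 bases), and cxcl8b.3, cxcl18b, ccl34b.1, ccl33.3 and ccl27a in the shorter (169 to 317 bases). DMSO 1 was the highest DMSO library for 11 of the 17 short members (64.7%), against 36.7% of all genes tested, and TCDD 4 the lowest TCDD library for 11 of them (64.7%), against 32.1%. These shares of all genes cover every length. The same shares among all short genes were not computed, so a trait of chemokines and one of short transcripts cannot be told apart here. With offsets for length, chosen after the data were seen, cxcl12a (-0.96, edgeR adjusted p = 0.00043), cxcl12b (-1.13, 0.00020), ackr3b (0.62, 0.011), cxcr4a (0.62, 0.0095), ccl34b.1 (-1.34, 0.014), ccl33.3 (-1.61, 0.025) and ccl27a (2.46, 0.0024) were called, cxcl18a.1 passed as well, and the median of the members was -0.09.

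**Figure D5:**
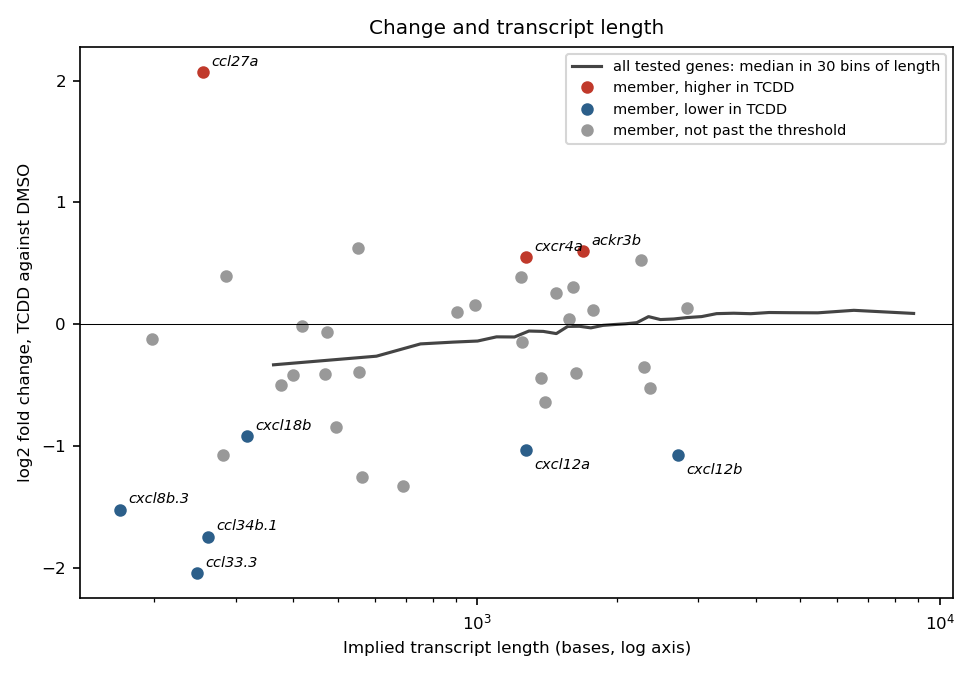
Log2 fold change of TCDD against DMSO for each tested member against its implied transcript length in bases (log axis), with the median of all tested genes in 30 bins of length as a line. The line runs below 0 at short implied lengths, where 4 of the 6 falling members lie, while cxcl12a, cxcl12b, ackr3b and cxcr4a have implied lengths over 1000 bases.

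Over all genes tested, 5.73% were called (2.99% higher, 2.73% lower). Of 41 tested genes of the signalling list (G proteins, arrestins, receptor kinases, PI3 kinases, Rac and its activators, JAK2 and others), 1 rose and 1 fell, and the median was 0.07 on the log2 scale. The rise was stat3, a transcription factor downstream of JAK kinases (80.9 ± 6.92 CPM in TCDD, 57.3 ± 5.40 CPM in DMSO; 0.50 ± 0.11, adjusted p = 0.019). The fall was wasb, which drives actin assembly in blood cells (6.59 ± 0.807 and 10.4 ± 1.21 CPM; -0.66 ± 0.14, adjusted p = 0.021). The kinase gene jak2a (-0.40 ± 0.11, adjusted p = 0.0503) and vav3b (-1.14 ± 0.34, adjusted p = 0.072) did not pass. Both calls were lost without TCDD 1 (0.0644 and 0.0565, stat3 and wasb), TCDD 2 (0.0763 and 0.0616) or both DMSO 1 and TCDD 2 (0.0895 and 0.0808). That of stat3 was also lost without TCDD 3 (0.0534) or DMSO 3 (0.0608), and that of wasb with library size alone (0.065) and on deposited TPM (0.25).

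While 2.99% of all genes tested were called higher and 2.73% lower, of 20 tested genes of cytokines and factors that induce chemokines 3 rose and 0 fell. Their median was 0.15. The rises were the cytokine gene il11a (2.68 ± 0.762 CPM in TCDD, 1.11 ± 0.0905 CPM in DMSO; 1.27 ± 0.25, adjusted p = 0.013), the interferon-pathway gene stat1b (11.5 ± 1.598 and 5.26 ± 1.94 CPM; 1.124 ± 0.23, adjusted p = 0.016) and the NF-kappaB subunit gene nfkb1 (6.46 ± 0.279 and 4.39 ± 0.360 CPM; 0.56 ± 0.14, adjusted p = 0.035). The NF-kappaB inhibitor gene nfkbiaa did not pass (-0.53 ± 0.15, adjusted p = 0.058). For nfkb1 the call was lost in 7 of the 8 fits without 1 library, with the replicate number as a block (0.0605) and without both DMSO 1 and TCDD 2 (0.0955). With that block nfkbiaa passed (0.0317). Calls were also lost for il11a (0.0515) and stat1b (0.0577) without DMSO 3. The call of stat1b was also lost without both DMSO 1 and TCDD 2 (0.0794).

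Markers of leukocytes were read beside the members and beside all genes tested, of which 2.99% were called higher and 2.73% lower. Among 12 tested genes of the neutrophil list, the cytokine receptor gene il6r rose (27.9 ± 2.13 CPM in TCDD, 13.97 ± 2.09 CPM in DMSO; adjusted p = 0.0016), and the lysozyme gene lyz fell (8.13 ± 0.640 and 17 ± 3.88 CPM; -1.06 ± 0.16, adjusted p = 0.0038). Whether il6r is particular to neutrophils in this material was not tested. Defining markers of neutrophils are both lyz and the peroxidase gene mpx. mpx held 10.9, 11.5, 7.93 and 10.9 CPM in TCDD, against 13.6, 11.5, 9.07 and 3.63 CPM in DMSO (edgeR adjusted p = 0.86). The summed neutrophil list ran from 224 to 618 CPM in TCDD and from 199 to 244 CPM in DMSO (exact two-sided permutation p = 0.057, 0.16 adjusted over 17 lists), the highest being TCDD 4. In TCDD 4 the sum was mostly mmp13a (227 CPM) and mmp9 (197 CPM, both on TMM-scaled sizes). Neither passed over the groups (edgeR adjusted p = 0.11 and 0.42), and the list's median log2 fold change was 0.06. Among 17 macrophage genes 3 fell and 0 rose, namely csf1rb (-1.11 ± 0.24, adjusted p = 0.019), grn1 (-1.36 ± 0.29, 0.021) and cd74a (-1.78 ± 0.46, 0.043), each lost in at least 2 of the fits without 1 library. The call of cd74a was also lost without both DMSO 1 and TCDD 2 (0.15), and that of csf1rb on deposited TPM (0.12 and 0.13). The defining genes mpeg1.1 (adjusted p = 0.70) and csf1ra (0.78) did not pass, and the summed list ran from 154 to 167 CPM in TCDD and from 127 to 192 CPM in DMSO (exact p = 0.74). The largest part of that sum was slc7a7 (64.4 ± 8.81 CPM in TCDD, 81.55 ± 16.7 CPM in DMSO, on TMM-scaled sizes; edgeR adjusted p = 0.22). The median log2 fold change of the macrophage list was -0.34. Of 11 genes of all leukocytes (cxcr3.2 included) 0 passed in edgeR, where 3 had an unadjusted p under 0.05, and DESeq2 called 2. In edgeR the adjusted p was 0.072 for coro1a and 0.44 for ptprc. The summed list was at 174 to 209 CPM in TCDD and 172 to 196 CPM in DMSO (exact p = 0.43). Its mean difference of 8.11 CPM turned to -10.7 CPM on TMM-scaled sizes. The largest part of the sum was arhgdig (101.5 ± 8.02 CPM in TCDD, 89.85 ± 4.2 CPM in DMSO, TMM-scaled, edgeR adjusted p = 0.31). The median log2 fold change of the 11 genes was -0.20.

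Of 14 tested endothelial genes, 3 fell and 0 rose, where 2.73% of all genes tested were called lower and 2.99% higher. The falls were tek (9.01 ± 1.19 CPM in TCDD, 20.1 ± 4.96 CPM in DMSO; -1.16 ± 0.18, adjusted p = 0.0037), flt4 (-0.62 ± 0.12, 0.012) and lyve1b (-0.67 ± 0.14, 0.016). The other 11 did not pass, the defining gene cdh5 among them (-0.21 ± 0.11, adjusted p = 0.27), and the list's median was -0.27. Calls of flt4 (0.28) and lyve1b (0.20) were lost on deposited TPM, and lyve1b also with library size alone (0.0537) and without TCDD 1 (0.0626) or DMSO 3 (0.0600). The summed endothelial list was at 312 ± 22.9 CPM in TCDD and 336 ± 22.0 CPM in DMSO (exact p = 0.17, n = 4 each). Over all 17 tissue lists the smallest exact p, 0.0286, is also the smallest that 4 against 4 can give, and it was reached by cartilage (7472 ± 592 and 10660 ± 1476 CPM), erythrocytes (4470 ± 718 and 6679 ± 1217 CPM) and thrombocytes (392.2 ± 26.6 and 318 ± 32.2 CPM, in TCDD and DMSO), each 0.16 after adjustment. The thrombocyte sum was mostly thbs1b (339 ± 26.7 CPM in TCDD, 293 ± 14.9 CPM in DMSO, adjusted p = 0.29), while gp1bb (-0.62 ± 0.19, adjusted p = 0.083) and mpl (-0.37 ± 0.32, 0.54) had negative values and the list's median was -0.18. Of its 5 tested genes 0 passed in edgeR, 1 had an unadjusted p under 0.05, and DESeq2 and limma-voom called 0.

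Calls in the other tissue lists were falls alone in some and were mixed, rises or absent in others. Of all genes tested, 2.73% were called lower and 2.99% higher. Of 13 tested cartilage genes 10 fell and 0 rose, with a median log2 fold change of -0.72. They included hapln1a (-1.05 ± 0.11, edgeR adjusted p = 0.00056), cnmd (-0.91 ± 0.12, 0.0021), acanb (-0.74 ± 0.11, 0.0033) and acana (-0.76 ± 0.12, 0.0038). Of 11 cardiomyocyte genes 3 fell and 0 rose, namely actc1c (-0.59 ± 0.12, adjusted p = 0.019), myl7 (-0.99 ± 0.22, 0.023) and myh7 (-0.48 ± 0.12, 0.034). The other 8 did not pass, and the list's median was -0.38. Of 11 erythrocyte genes 3 fell and 0 rose, all of them globin genes, namely hbae5 (-2.11 ± 0.38, adjusted p = 0.016), hbbe2 (-1.15 ± 0.25, 0.020) and hbbe1.3 (-0.89 ± 0.22, 0.036). Of 9 intestinal genes 3 fell and 0 rose, namely fabp2 (-0.79 ± 0.17, adjusted p = 0.022), anpepb (-1.21 ± 0.27, 0.026) and alpi.2 (-1.80 ± 0.41, 0.040). Skin had 2 rises and 3 falls among 13 genes. Liver had 1 rise (cp, 0.97 ± 0.21, edgeR adjusted p = 0.020) and 0 falls among 13. Lateral line had 1 rise and 0 falls among 10, and neural genes 0 rises and 1 fall among 11. In edgeR 0 genes passed among 13 of skeletal muscle, 14 of exocrine pancreas and 6 of mast cells and eosinophils. How the calls in this paragraph fared in the other settings is not given here, and reads may be shared among globin copies. The part of these cell types in the chemokine values was not tested.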

How the data were processed

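Total RNA of 8 libraries (4 TCDD, 4 DMSO) was extracted with Trizol and prepared with a SMARTER mRNA-Seq kit, per the labels' protocols. The submitters' processing notes name Bowtie2 and GRCz11, and the sources used here give neither quantifier nor annotation. The authors deposited, per library, an expected count for each gene, which is not normalized (11.43 to 11.98% of genes have a fraction; among the members cxcl13, ccr10 and xcr1a.1). The authors also deposited TPM and FPKM, scaled for transcript length and library size.

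Expected counts were rounded. In R 4.3.3, edgeR 4.0.16 then filtered genes (filterByExpr, minimum count 10), set TMM factors and ran its robust quasi-likelihood test of treatment, two-sided, with Benjamini-Hochberg adjustment over 20522 genes. Each SE was computed as the absolute log2 fold change divided by the root of the F statistic. Tested on simulated counts of 20297 genes, the fit recovered 97% of 100 genes changed 4-fold and 81% of 100 changed 2-fold, with 15 false calls. Summed CPM of marker lists used library size alone, without members of the chemokine families, and an exact permutation test. Of 286 list entries 273 were matched by symbol and 9 by synonym. Pairs of libraries within a group differed beyond sampling noise (chi-square over its degrees of freedom at least 9.53), so none appeared as a copy of another. The sources used here do not state that same-numbered libraries are pairs, so numbers were not taken as pairs. Deviations of same-numbered libraries had correlations of mixed sign (-0.293 to 0.277), which cannot settle this. Intervals were not given for single libraries, and the floor of 3 counts covers counting error only.

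Members and lists were chosen with earlier results of these data known. Named are all called members, a fixed list of well-known members, the 10 most abundant in TPM, the 6 uncalled with the smallest p, up to 4 genes with the smallest p in a list, and cyp1a. The defining markers mpx, mpeg1.1, csf1ra, ptprc, cdh5 and fabp10a were named after their values were seen, as were arhgdig, slc7a7 and cpa5. Further tools were DESeq2 1.42.0, limma 3.58.1, SciPy 1.17.1, pandas 2.3.3 and numpy 2.4.6 in Python 3.11.15, with matplotlib 3.10.9 for figures. Alternatives are given in the closing section. A planned search of promoters for an AHR motif was not made, as no promoter sequences were used here.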

Additional observations from a re-analysis of the deposited data

Results flagged for a closer look

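Of 74 groups of 4 libraries examined (37 tested members in TCDD and in DMSO), 4 held a library far from the other 3 by Dixon's ratio, and chance flags about 1 in 20. cxcl8b.1 was at 31.9 CPM in TCDD 4, against 4.93 to 9.20 CPM in the other TCDD libraries. cxcl18b was at 2.06 CPM in TCDD 4, against 1.59 to 1.62 CPM in the others. cxcl13 was at 2.73 CPM in TCDD 3, against 1.69 to 1.80 CPM in the others. cxcl12a was at 162.5 CPM in DMSO 1, against 129 to 133 CPM in the other DMSO libraries, and its call held without DMSO 1 (log2 fold change -0.95, edgeR adjusted p = 0.000425).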

How the results depend on the processing

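The 9 calls rest on 4 libraries a group, and cxcl12a and cxcl12b alone kept theirs in every setting tried. Members called higher (3) numbered 1 to 3 and members called lower (6) 4 to 6 in fits without 1 library. The low of 1 higher came without TCDD 1, TCDD 2, TCDD 3 or DMSO 3. Without both DMSO 1 and TCDD 2 they were 1 and 4, and at an adjusted p under 0.01 they were 0 and 2. All genes called (1175) numbered 523 (without DMSO 3) to 1854 (without DMSO 2) in such fits, with 652 without TCDD 1, 579 without TCDD 2 and 755 without TCDD 3. They were 616 without both libraries, 1987 with DESeq2, 328 at 0.01 and 2069 at 0.1. The split of 614 higher and 561 lower became 937 and 372 with library size alone, which shifted the median of all genes by 0.13, and 1295 and 185 or 1211 and 175 on TPM with 0.5 or 0.1 added. The median log2 fold change of the members (-0.35) was -0.37 to -0.15 without 1 library, -0.21 without both, -0.031 and -0.033 on TPM with 0.5 and 0.1 added, and -0.087 with offsets for length. The cause of these differences was not tested, and fits without libraries had fewer samples.

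Deviations of same-numbered libraries had correlations of -0.293, -0.217, 0.0942 and 0.277. With mixed signs, these values cannot settle whether the numbers pair libraries. With the replicate block, 3 members were called higher, 7 lower, and 1347 of all genes, with a median of -0.36 for the members. It ended the calls of nfkb1 (0.0605) and rag2 (0.0529), and ccl38.6 (0.0336) and nfkbiaa (0.0317) passed.

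Signs of uncalled members turned as follows. ccl44 was at 0.017 with library size alone, 0.267 and 0.272 on TPM and 0.314 with length offsets. ccl25a was at 0.097, 0.283, 0.31 and 0.283 in the same settings and above 0 without TCDD 4, DMSO 2 or DMSO 4. cxcl8b.1 was at 0.073 with library size alone, 0.112 without both libraries, 0.205 with length offsets and above 0 without TCDD 1, TCDD 2, TCDD 3 or DMSO 2. Over all fits without 1 library, ccl25a ran from -0.15 to 0.139, cxcl8b.1 from -0.90 to 0.277, cxcl13 from -0.098 to 0.170, ccr6a from -0.068 to 0.586 and ccr9a from -0.024 to 0.116. Differences of summed CPM turned for all leukocytes (-10.7) and mast cells and eosinophils (-85.5) on TMM-scaled sizes. Without 1 library they ran from -37.7 to 61.4 for mast cells and eosinophils, from -19.9 to 1.66 for macrophages, from -4896 to 2943 for liver and from -62.5 to 268 for neural genes. The mast cell and eosinophil sum was mostly cpa5 (707 ± 118 CPM in TCDD, 794 ± 215 CPM in DMSO, on TMM-scaled sizes). Whether cpa5 is particular to these cells in this material was not tested. The planned promoter search was not run. None of the 34 members below the filter passed in the fit without it, and their low counts limit which differences could be detected.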

Other observations

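TCDD 4, the library with the highest cxcl8b.1, was also the highest of all 8 libraries for other genes induced in inflammation, which were chosen after their values were seen. The cytokine gene il1b was at 21.6 CPM in TCDD 4, against 5.13 to 10.7 CPM in the other 7 libraries. The prostaglandin synthase gene ptgs2b was at 230.3 CPM, against 47.6 to 97.4 CPM. The metalloproteinase genes mmp9 (197 CPM, against 47.1 to 65.6 CPM) and mmp13a (227 CPM, against 23.9 to 82.4 CPM) followed the same order. TCDD 4 was the highest library for 4 of 20 tested inducer genes (il1b and ptgs2b among them) and 4 of 12 tested neutrophil genes (mmp9 and mmp13a among them). It was also the highest for 2 of 37 tested members and 16.1% of all genes tested.

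Another pair of genes carries a chemokine receptor symbol only in RefSeq's table of the GRCz12tu assembly. cxcr1, a receptor of Cxcl8 that the files list under a locus number, had counts of 1, 1, 0 and 0 in TCDD and 2, 2, 1 and 0 in DMSO. ccr8.2, listed under a clone name, had 2, 0, 0 and 1 counts in TCDD and 0, 1, 0 and 0 in DMSO.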
